A study of Mus musculus with 24 samples.

Results

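The Ifit gene cluster is a run of interferon-induced genes on mouse chromosome 19, and 5 of its genes, Ifit1, Ifit1bl1, Ifit2, Ifit3 and Ifit3b, were followed here out of 56884 genes in the count table. They were taken by name from a list chosen by their measured expression in these same libraries, without a record of which comparison weighed in the choice. All comparisons are therefore treated as used, and the members' levels, fold changes, intervals and calls are given as a description that supports nothing further. All 5 symbols matched 1 identifier each, and all 5 were among the 13679 genes with enough counts to be fitted.

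The libraries came from bone marrow-derived macrophages of 4 female wild-type C57BL/6J mice, 9 weeks old and numbered 1, 2, 4 and 5. The marrow cells had been grown into macrophages with macrophage colony-stimulating factor (M-CSF). Cells of every mouse were either left unstimulated (naive) or given IL-4 and IL-13 at 20 ng/ml each for 24 h, and the other 4 groups received the same cytokines with an inhibitor that was also present for 1 h beforehand. The inhibitors were tunicamycin at 5 µg/ml, which blocks protein N-glycosylation, Sal003 at 10 µM, which blocks the dephosphorylation of the translation factor eIF2α, and, in 2 sets, the inhibitor of the mitochondrial ATP synthase oligomycin at 1 µM. ISRIB, a compound that counteracts the effect of eIF2α phosphorylation, was added at 1 µM in 1 of the oligomycin sets, and titles and library names disagree on which. Set A is the oligomycin set with ISRIB by its title, and set B the one whose library name carries it. Neither reading was preferred, and counts played no part in the naming. No group was given interferon, and each group holds 1 library of each mouse, 24 libraries in all. The cells are a culture grown from marrow and not sorted, so in these bulk libraries fewer cells of a type and less RNA per cell cannot be told apart.

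IFIT proteins are built from tetratricopeptide repeats and are among the most strongly induced products of type I interferon signalling. Interferon binds a receptor made of IFNAR1 and IFNAR2, and transcription factors that include STAT2 and IRF9 then bind interferon-stimulated response elements (ISREs) in front of target genes. IFIT1 binds viral RNA whose cap lacks the methylation of host RNA, IFIT3 is a partner that binds IFIT1, and IFIT2 has been tied to translation and cell death. Macrophages keep a basal level of this programme through the small amount of interferon-β they secrete.

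In GRCm39 the members lie in the order Ifit2 (chr19:34527932-34554524, plus strand), Ifit3 (chr19:34560899-34566443, plus), Ifit1bl1 (chr19:34570291-34579356, minus), Ifit3b (chr19:34585328-34590801, plus) and Ifit1 (chr19:34618271-34632174, plus). A sixth Ifit gene, Ifit1bl2 (chr19:34594449-34639833, minus), spans Ifit1 on the opposite strand, but no exon of any member overlaps an exon of another gene. The stretches in front of the annotated starts are shown because Ifit3 and Ifit3b, whose promoters are near-identical, differed in their distance from the naive level. Each is written 5′ to 3′ on the strand of its gene, in GRCm39. Capitals mark matches to the ISRE core, GAAA and GAAA with 2 bases between them on either strand. The stretch of Ifit2 has none, and its capitals mark the match to the STAT site TTCNNNGAA. Bases of annotated exons were left off, so the stretches end 1 base before the start except in Ifit2, where the last base is 114 bases before it.
Ifit3, chr19:34560649-34560898: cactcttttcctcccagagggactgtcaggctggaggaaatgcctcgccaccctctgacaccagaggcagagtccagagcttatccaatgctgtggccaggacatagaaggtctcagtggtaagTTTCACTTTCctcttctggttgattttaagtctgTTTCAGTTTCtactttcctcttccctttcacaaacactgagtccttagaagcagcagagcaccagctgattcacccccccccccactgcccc
Ifit3b, chr19:34585078-34585327: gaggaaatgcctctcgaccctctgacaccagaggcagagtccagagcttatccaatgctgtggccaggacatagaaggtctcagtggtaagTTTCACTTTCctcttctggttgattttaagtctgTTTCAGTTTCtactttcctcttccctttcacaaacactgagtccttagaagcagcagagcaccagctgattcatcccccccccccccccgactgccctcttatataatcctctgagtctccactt
Ifit1bl1, chr19:34579357-34579606: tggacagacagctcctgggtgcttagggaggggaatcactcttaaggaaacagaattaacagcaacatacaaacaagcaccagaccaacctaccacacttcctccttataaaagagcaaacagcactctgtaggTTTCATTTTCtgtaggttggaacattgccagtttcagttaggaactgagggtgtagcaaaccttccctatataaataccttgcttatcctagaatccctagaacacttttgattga
Ifit1, chr19:34618144-34618270: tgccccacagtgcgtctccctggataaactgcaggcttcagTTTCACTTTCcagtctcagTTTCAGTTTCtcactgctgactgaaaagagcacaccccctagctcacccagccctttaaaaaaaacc
Ifit2, chr19:34527795-34527931: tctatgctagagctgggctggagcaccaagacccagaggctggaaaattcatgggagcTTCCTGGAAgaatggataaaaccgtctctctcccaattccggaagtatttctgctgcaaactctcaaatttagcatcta

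In the 250 bases before the start, Ifit1, Ifit3 and Ifit3b each held 2 matches to the ISRE core, Ifit1bl1 held 1 and Ifit2 held 0. The core occurred in 3.32% of 21770 mouse promoters of the same length, and 2 or more copies in 0.271%. Ifit2 had no match in the 250 bases before any of its 7 annotated starts. Sequence further away and looser forms of the element were not searched. Ifit2 held 1 match to TTCNNNGAA, which occurred in 7.70% of promoters. No member held a match to TTC and GAA with 4 bases between them, the type that STAT6 of the IL-4 pathway binds (5.89% of promoters), or to TGATGNAA, the element bound by ATF4 (3.39%). The promoters of Ifit3 and Ifit3b were the same at 213 of 217 aligned bases (98.2%), and both hold their ISRE pair with the same sequence and spacing, at 126 and 92 bases before the annotated start of Ifit3 and at 159 and 125 bases before that of Ifit3b. The ISRE pair of Ifit1 lies between its start and that of the main transcript of Ifit1bl2. These starts are 128 bases apart and face away from each other, so both have the same pair in front of them. Another annotated start of Ifit1bl2, at chr19:34639833, had 0 matches. These matches describe the sequence, and factor binding was not measured.

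The coding sequences of Ifit3 and Ifit3b were the same at 1198 of 1209 bases (99.1%). Of all stretches of 75 bases in the main transcript of Ifit3b, 36.9% also occur in Ifit3, and 36.1% of those of Ifit3 occur in Ifit3b. By default the counting program leaves out reads with more than 1 best position, and the setting used is not given in the sources used here, so how reads of the shared stretches were split between Ifit3 and Ifit3b is uncertain. The remaining pairs were less alike, with 78.6% identity of aligned coding bases between Ifit1 and Ifit1bl1 and under 70% for pairs between Ifit1 or Ifit1bl1 on one side and Ifit2, Ifit3 or Ifit3b on the other.

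Depth was similar across the groups, with 16238727 to 26725278 reads counted on genes per library (median 18999998), so that 1 CPM (counts scaled to library size by TMM) stood for 16.5 to 25.8 counts. All 7 macrophage markers were detected in every group, and their sum moved with the groups, from 30582 to 36302 CPM in naive libraries to 11370 to 13771 CPM after IL-4/IL-13 and 8721 to 17650 CPM with the inhibitors. Summed neutrophil markers (5 genes) went from 38.3 to 73.9 CPM in naive libraries to 22.3 to 40.6 CPM after IL-4/IL-13, 4.72 to 8.21 CPM with Sal003, 2.65 to 4.66 CPM in set A, 18.7 to 24.5 CPM in set B and 0.0567 to 0.286 CPM with tunicamycin. Those of T or NK cells were at most 0.398 CPM. The part of these markers in the levels of the members was not tested. Calls were made with edgeR's quasi-likelihood test and required both an adjusted p-value (Benjamini-Hochberg) below 0.05 and at least a 2.5-fold difference. Fold changes of the members carry standard errors (SE) that pool the spread between mice over all 6 groups. That spread was unequal: the SD of log2 CPM for Ifit3 was 0.20 in naive libraries, 0.98 with Sal003 and 1.03 in set B. In comparisons with Sal003 or set B the SE and intervals are therefore likely too narrow. Between naive and IL-4/IL-13 they can be too wide.

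Naive macrophages expressed all 5 members, and IL-4/IL-13 lowered every one of them to a few percent of the naive level or less. Ifit2 was at 402, 317, 358 and 341 CPM in the naive cells of mice 1, 2, 4 and 5, and at 12.2, 11.7, 12.3 and 15.5 CPM after IL-4/IL-13. Ifit3 went from 279, 306, 230 and 233 CPM to 3.40, 3.13, 3.74 and 4.55 CPM. Ifit1 went from 125, 125, 122 and 112 CPM to 3.68, 3.43, 4.84 and 4.98 CPM. The groups were far apart for these genes in every mouse, and the naive libraries of a gene differed by at most 1.33-fold between mice. Ifit3b went from 58.5, 59.8, 47.6 and 46.6 CPM to 0.278, 0.151, 0.211 and 0.364 CPM, which is 888 to 1198 counts against 3 to 6 counts. Ifit1bl1 went from 47.8, 42.5, 41.6 and 41.5 CPM to 0.167, 0.555, 0.316 and 0.789 CPM, or 748 to 980 counts against 3 to 13. The lowered level of Ifit3b and Ifit1bl1 was therefore near the limit of detection at this depth.

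**Figure D1:**
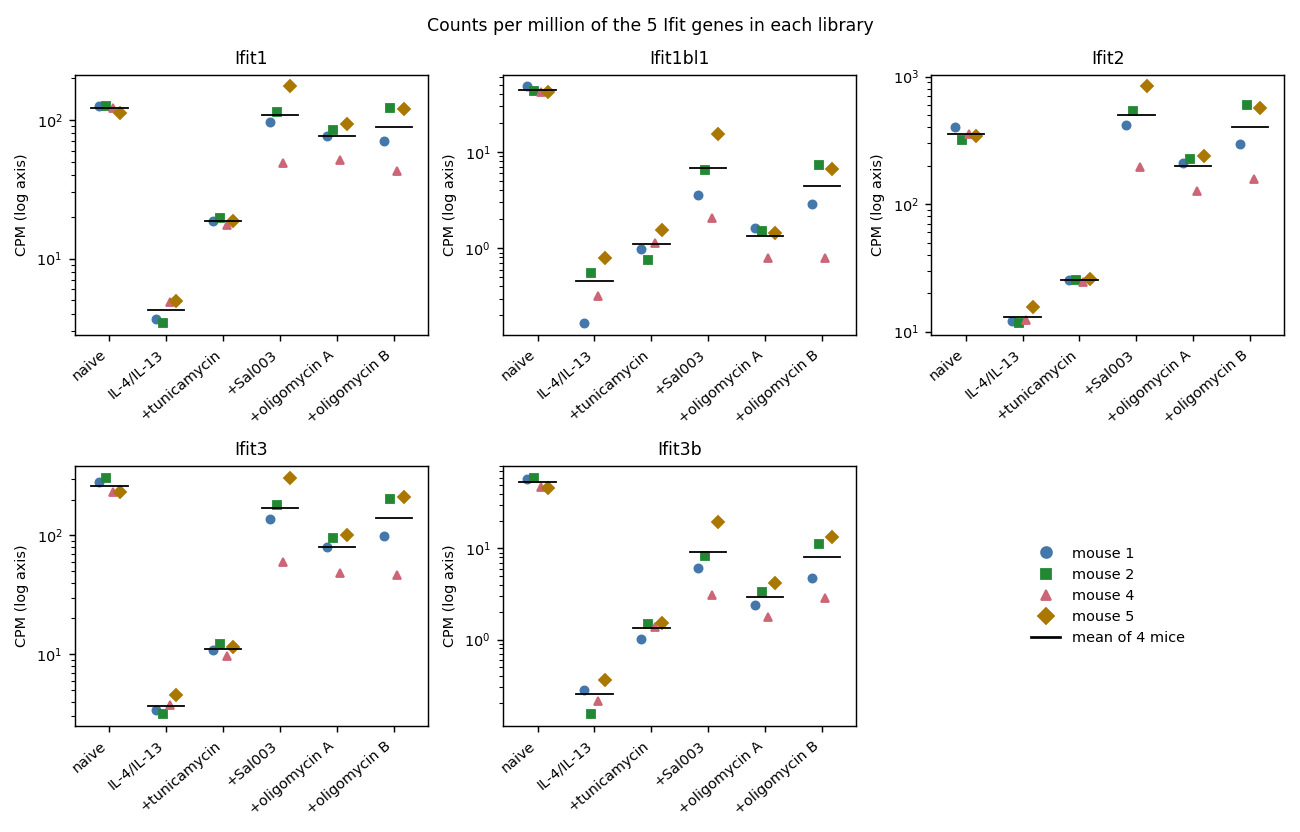
Level of each Ifit gene, 1 panel per gene, in CPM on a log axis, in the 6 groups, where + marks an inhibitor given with IL-4/IL-13 and A and B are the oligomycin sets. Each point is the library of 1 mouse and the line is the mean of 4 mice. Ifit1, Ifit2 and Ifit3 return to within a few-fold of naive with Sal003 and both oligomycin sets, while Ifit1bl1 and Ifit3b stay below every naive library in those groups.

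As a share of the naive library of the same mouse, the level left after IL-4/IL-13 was 3.68% ± 0.65 for Ifit2, 3.52% ± 0.82 for Ifit1, 1.45% ± 0.42 for Ifit3, 1.08% ± 0.67 for Ifit1bl1 and 0.49% ± 0.22 for Ifit3b (SD, n = 4). The fitted log2 fold changes were -4.78 (SE 0.40) for Ifit2, -4.84 (SE 0.37) for Ifit1, -6.15 (SE 0.51) for Ifit3, -6.57 (SE 0.56) for Ifit1bl1 and -7.72 (SE 0.60) for Ifit3b. All 5 members were called lower, in a comparison in which 6.08% of all genes fitted were called lower, and Ifit3b had the lowest fold change of the 13679 genes. Because the choice of the members may have used this contrast and those that follow, nothing is read from this count or from the later counts of members called. Within the pair of near-identical genes, Ifit3b was lowered further than Ifit3.

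Per length, as TPM computed from counts and exon length, the family changed its make-up as well as its level. Naive cells held 1028 ± 92.5 TPM over the 5 members, of which Ifit3 made up 42.7%, Ifit2 28.3%, Ifit3b 12.2%, Ifit1bl1 9.05% and Ifit1 7.70% (mean of 4 mice). After IL-4/IL-13 the sum was 20.0 ± 3.35 TPM, with Ifit2 at 50.3% and Ifit3 at 29.4% of it. Ifit3b made up 2.77% and Ifit1bl1 4.49% of that sum. Ifit2 thus took the place of Ifit3 as the leading member on this scale.

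With Sal003, the libraries of the 3 abundant members spread over a range that overlapped that of naive cells, and those of the other 2 did not. Ifit2 stood at 415, 536, 194 and 837 CPM in mice 1, 2, 4 and 5, Ifit3 at 137, 182, 59.6 and 302 CPM, and Ifit1 at 96.1, 114, 49.0 and 174 CPM. For Ifit2 3 libraries were above and 1 below all naive ones, while for Ifit3 and Ifit1 1 library lay within the naive range. Ifit3b stood at 6.13, 8.18, 3.06 and 19.4 CPM and Ifit1bl1 at 3.53, 6.54, 2.04 and 15.1 CPM, all above the IL-4/IL-13 libraries and all below the naive ones. The log2 fold changes against IL-4/IL-13 were 5.53 (SE 0.51) for Ifit3, 5.26 (SE 0.41) for Ifit2, 5.20 (SE 0.71) for Ifit3b, 4.68 (SE 0.37) for Ifit1 and 3.91 (SE 0.66) for Ifit1bl1. All 5 members were called higher, where 2.68% of all genes fitted were called higher. Against naive, the log2 fold changes were -0.16 (SE 0.27) for Ifit1, 0.48 (SE 0.32) for Ifit2 and -0.62 (SE 0.35) for Ifit3, with 95% intervals that included 0, but -2.52 (SE 0.35) for Ifit3b and -2.66 (SE 0.38) for Ifit1bl1.

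**Figure D2:**
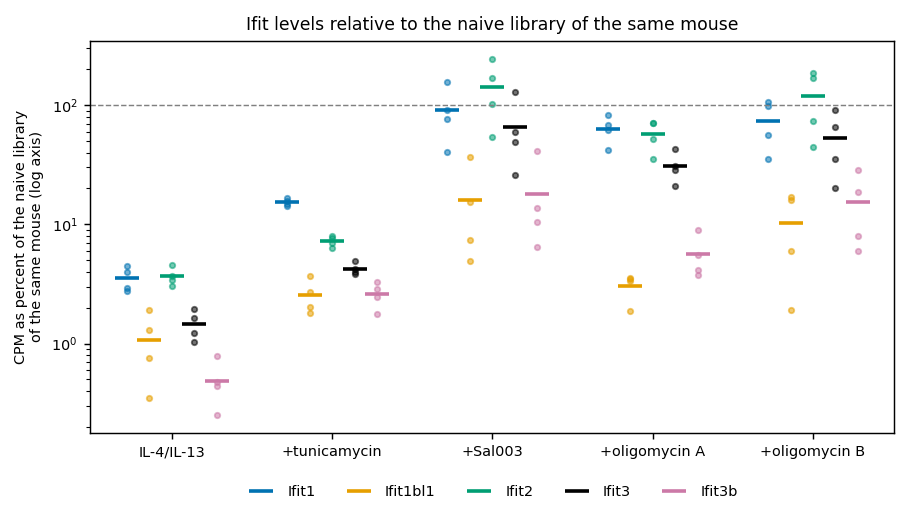
Level of each Ifit gene in the 5 groups given IL-4/IL-13, as percent of the naive library of the same mouse, on a log axis. Dots are the 4 mice, bars their mean, and the dashed line is the naive level. Ifit1 and Ifit2 lie on both sides of the line with Sal003 and oligomycin set B, and Ifit3 does so with Sal003 and lies below it in set B, whereas Ifit1bl1 and Ifit3b lie between 1.90% and 41.5% of naive there.

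Oligomycin set B gave a pattern close to that of Sal003 in these values. Ifit2 was at 296, 594, 158 and 570 CPM, Ifit3 at 98.1, 202, 46.4 and 210 CPM, and Ifit1 at 69.9, 122, 42.9 and 120 CPM. Of these, Ifit2 and Ifit1 overlapped their naive libraries and Ifit3 did not. Ifit3b was at 4.71, 11.1, 2.83 and 13.3 CPM and Ifit1bl1 at 2.87, 7.27, 0.792 and 6.66 CPM, again above IL-4/IL-13 and below naive in every mouse. Against IL-4/IL-13 the log2 fold changes ran from 3.31 (SE 0.70) for Ifit1bl1 to 5.25 (SE 0.51) for Ifit3, and all 5 members were called higher, beside 2.94% of all genes. Against naive they were 0.19 (SE 0.32) for Ifit2, -0.44 (SE 0.27) for Ifit1 and -0.91 (SE 0.36) for Ifit3, and -2.70 (SE 0.35) for Ifit3b and -3.26 (SE 0.39) for Ifit1bl1.

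In oligomycin set A the mean levels of the same 3 genes were below those in set B, although Ifit1 was higher in set A in 2 mice. Ifit1bl1 stayed far below its naive level but was above its IL-4/IL-13 level in every mouse, with means of 1.34 and 0.457 CPM. Ifit2 was at 210, 226, 126 and 240 CPM, Ifit3 at 79.3, 94.3, 48.1 and 100 CPM, and Ifit1 at 76.9, 84.9, 51.1 and 93.1 CPM. All 12 values were below the lowest naive library of their gene. Ifit3b was at 2.41, 3.34, 1.78 and 4.20 CPM. Ifit1bl1 was at 1.61, 1.51, 0.786 and 1.45 CPM, or 15 to 34 counts, which overlapped the IL-4/IL-13 libraries by the narrow margin between 0.786 and 0.789 CPM. The log2 fold changes against IL-4/IL-13 were 4.45 (SE 0.51) for Ifit3, 4.18 (SE 0.37) for Ifit1, 3.96 (SE 0.40) for Ifit2, 3.55 (SE 0.86) for Ifit3b and 1.57 (SE 0.87) for Ifit1bl1. The first 4 were called higher, beside 4.79% of all genes, and Ifit1bl1 was not, although DESeq2, the fit without a filter and the fit of these 2 groups alone did call it.

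Tunicamycin left the members low. Ifit1 was at 18.6, 19.7, 17.4 and 18.5 CPM and Ifit3 at 10.8, 12.3, 9.64 and 11.4 CPM, with a spread between mice of at most 1.27-fold. Ifit2 was at 25.6, 25.5, 24.7 and 26.0 CPM, Ifit3b at 1.03, 1.48, 1.36 and 1.53 CPM, and Ifit1bl1 at 0.976, 0.762, 1.13 and 1.53 CPM. Every member but Ifit1bl1 was above all IL-4/IL-13 libraries, and all 5 stayed far below the naive ones. The log2 fold changes against IL-4/IL-13 were 2.43 (SE 1.02) for Ifit3b, 2.14 (SE 0.40) for Ifit1 and 1.59 (SE 0.59) for Ifit3, which were called higher beside 8.56% of all genes, and 1.27 (SE 0.92) for Ifit1bl1 and 0.98 (SE 0.41) for Ifit2, which were not. Without mouse 1 or without mouse 2 the calls of Ifit3 and Ifit3b were lost and 1 call remained, that of Ifit1, while the log2 fold changes with each mouse left out stayed between 1.45 and 1.70 for Ifit3 and between 2.19 and 2.63 for Ifit3b. Against naive the log2 fold changes ran from -2.70 (SE 0.30) for Ifit1 to -5.30 (SE 0.49) for Ifit1bl1.

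The share of the log2 fall that each condition gave back puts these groups side by side, with 0% at the IL-4/IL-13 level and 100% at the naive level of the same mouse (log2 CPM with a prior count of 2). For Ifit2 it was 107% ± 20.4 with Sal003, 101% ± 20.9 with set B, 82.2% ± 9.59 with set A and 20.5% ± 2.89 with tunicamycin. For Ifit3 it was 86.5% ± 16.3, 81.4% ± 16.2, 71.5% ± 7.06 and 25.3% ± 3.13 in the same order. For Ifit1 the values were 93.9% ± 17.6, 88.1% ± 16.1, 85.6% ± 9.06 and 43.8% ± 3.99, the highest tunicamycin value of the family. Ifit3b reached 61.5% ± 14.9, 59.2% ± 14.0, 42.3% ± 6.61 and 28.2% ± 5.11, and Ifit1bl1 53.7% ± 15.9, 43.4% ± 18.5, 22.0% ± 9.60 and 18.1% ± 9.0 (SD, n = 4 in each). Sal003 and set B lay within 1 SD of each other for all 5 genes.

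In the order of group means, neighbouring groups often overlapped. Ifit2 ran from Sal003 through oligomycin set B, naive, set A and tunicamycin to IL-4/IL-13. Sal003 overlapped set B, and set B overlapped naive. The later neighbours stood apart, although set A overlapped Sal003 and set B. The other 4 members ran from naive through Sal003, set B, set A and tunicamycin to IL-4/IL-13. In Ifit1 and Ifit3 the neighbours from naive to set A overlapped. Tunicamycin stood apart from set A, and IL-4/IL-13 from tunicamycin. In Ifit3b and Ifit1bl1 naive stood apart from all other groups, and in Ifit1bl1 every later neighbour overlapped the next.

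The oligomycin sets were then set against each other. Set A was lower than set B in Ifit1bl1 by a log2 fold change of -1.74 (95% interval -2.87 to -0.61) and in Ifit3b by -1.48 (-2.38 to -0.57), and these 2 members were called lower, beside 1.48% of all genes. The others were at -1.01 (-1.69 to -0.34) for Ifit2, -0.79 (-1.54 to -0.04) for Ifit3 and -0.22 (-0.78 to 0.35) for Ifit1, and were not called. Ifit2, Ifit3b and Ifit1bl1 were lower in set A in all 4 mice, Ifit3 in 3 and Ifit1 in 2. For Ifit1bl1 in mouse 4 the values were nearly equal, at 0.786 CPM (15 counts) in set A and 0.792 CPM (14 counts) in set B. Ifit3b lost its call without mouse 2 or mouse 5 and Ifit1bl1 without mouse 2, while with each mouse left out the log2 fold changes stayed between -1.57 and -1.29 and between -1.99 and -1.47. With the Ifit3 and Ifit3b counts summed, the pair had a log2 fold change of -0.82 and no call.

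The balance between near-identical partners changed with the condition in every mouse. Per length, Ifit3b stood at 29.6, 27.6, 29.2 and 28.2% of Ifit3 in the naive cells of mice 1, 2, 4 and 5. With Sal003 it stood at 6.31, 6.35, 7.23 and 9.04%, with oligomycin set A at 4.30, 4.99, 5.22 and 5.89%, and with set B at 6.78, 7.72, 8.59 and 8.93%. None of these 12 libraries came near the lowest naive ratio, with 34 to 376 Ifit3b counts behind each. With tunicamycin the ratio was 17.3% ± 2.85, between the others and naive, and after IL-4/IL-13 alone it was 9.40% ± 2.38, on only 3 to 6 Ifit3b counts a library. The ratio was thus below naive in every treated group, and the rises of Ifit3b and Ifit3 from IL-4/IL-13 were close with Sal003 (5.20 and 5.53 on the log2 scale) and set B (5.02 and 5.25).

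The ratio of Ifit1bl1 to Ifit1 was also below naive in every treated group. Its mean was lower with tunicamycin than after IL-4/IL-13, but this held only in mice 2 and 5. The IL-4/IL-13 ratio rests on 3 to 13 Ifit1bl1 counts a library. Per length it was at 118% ± 6.86 of Ifit1 in naive cells, 35.4% ± 20.1 after IL-4/IL-13, 19.6% ± 6.16 with tunicamycin, 18.3% ± 7.43 with Sal003, 14.3% ± 6.11 with set B and 5.71% ± 0.85 with set A (SD, n = 4). Ifit1 against Ifit2 followed no such line, at 27.4% ± 2.84 in naive cells, 26.0% ± 3.63 after IL-4/IL-13 and 58.0% ± 2.48 with tunicamycin. It was 17.98% ± 1.63 with Sal003, 18.3% ± 2.39 with set B and 30.6% ± 1.36 with set A. Sal003 and set B were therefore alike in this ratio, and neither overlapped naive or set A.

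**Figure D3:**
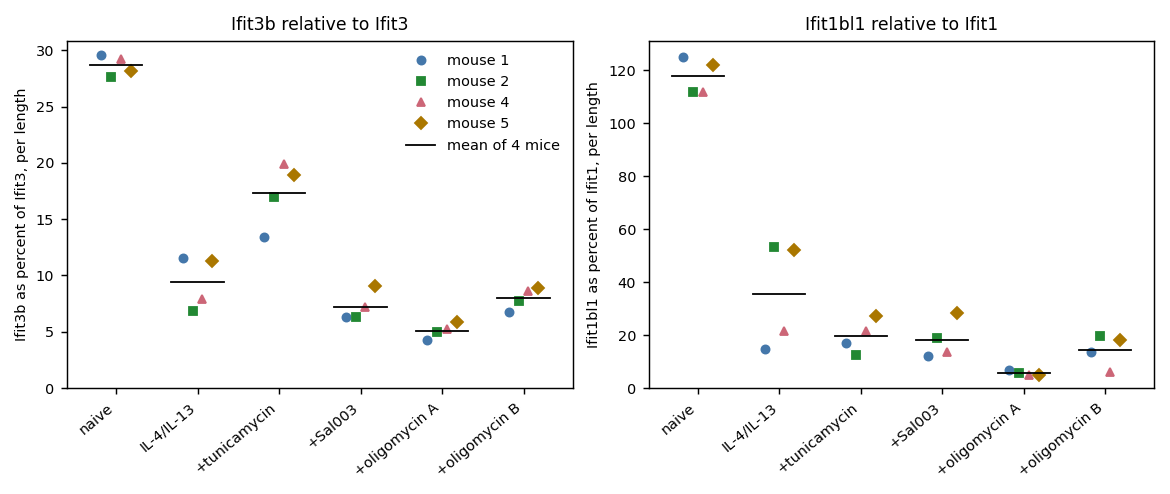
Ifit3b as percent of Ifit3 (left) and Ifit1bl1 as percent of Ifit1 (right), both per exon length, in each library of the 6 groups. Points are mice and lines are means of 4 mice. The naive libraries lie above all others in both panels, at 27.6% to 29.6% and 112% to 125%.

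The mice differed more with Sal003 and both oligomycin sets than in naive cells, and the members differed together. Mouse 4 had the lowest level of all 5 members with Sal003, set A and set B. Mouse 5 had the highest level of all 5 with Sal003, of 4 in set A and of 2 in set B, where mouse 2 led the other 3. After IL-4/IL-13 alone mouse 5 was likewise highest in all 5. With Sal003 the highest mouse exceeded the lowest by 3.55-fold in Ifit1 to 7.43-fold in Ifit1bl1, and in set B by 2.84-fold in Ifit1 to 9.19-fold in Ifit1bl1, against 1.82- to 2.36-fold in set A and 1.12- to 1.33-fold in naive cells. After IL-4/IL-13 the ratio was 1.33 to 4.72, the highest being Ifit1bl1 on 3 to 13 counts. The range over mice with Sal003 was larger than that of 98.1% of all genes fitted for Ifit1 and of 99.8% for Ifit1bl1.

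**Figure D4:**
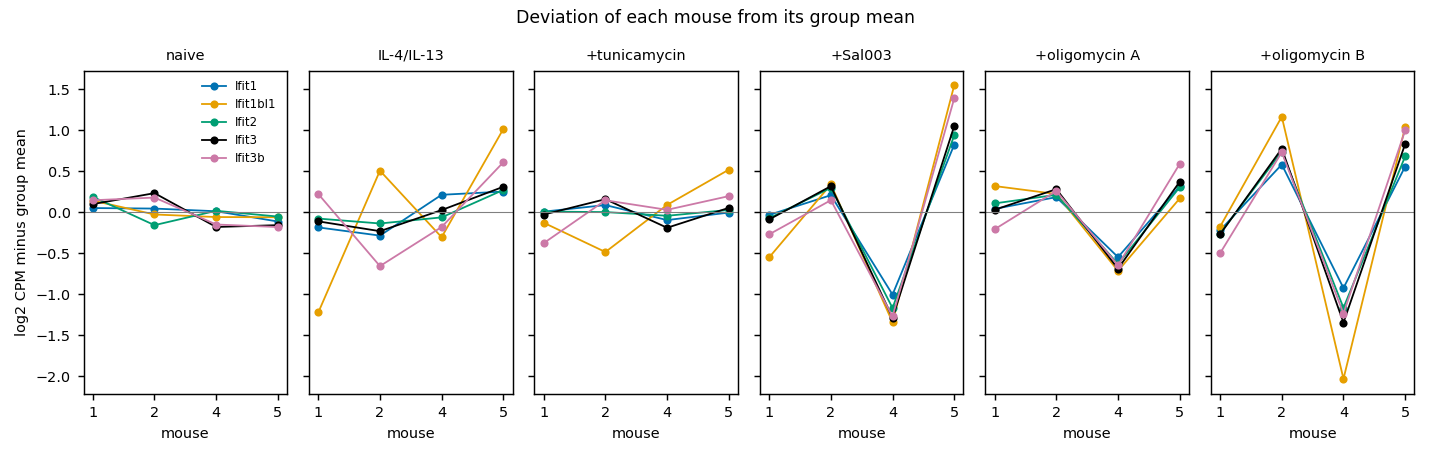
Deviation of each mouse from its group mean in log2 CPM, 1 panel per group, with a line for each Ifit gene. The 5 lines run together with Sal003 and both oligomycin sets, with mouse 4 lowest, and lie near 0 in naive cells.

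Other interferon-stimulated genes followed the same order of mice. Of 24 effectors of this class fitted here, such as Rsad2 and Isg15 and without the Ifit genes, 23 were lowest in mouse 4 and 23 highest in mouse 5 with Sal003, where 28.4% and 30.2% of all genes were. In set B 22 were lowest in mouse 4, in set A 21, and in naive cells 5, beside 23.4%, 25.7% and 21.2% of all genes. Highest in mouse 5 were 18 after IL-4/IL-13 alone, 15 in set A, 9 in set B and 1 in naive cells. The shares of all genes there were 25.5%, 23.9%, 25.3% and 18.6%. Summed stromal markers (4 genes) also differed between mice, from 3.76 CPM in mouse 5 to 23.5 CPM in mouse 1 with Sal003 and in the same direction in the other groups, with mouse 4 at 13.8 CPM. Their part in the order of the members was not tested.

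The rest of the pathway was followed in a list of 65 genes. It was chosen with earlier results of these data known, so its counts, medians and p-values are given as a description. Of the 65 genes 59 were fitted. The 5 interferon ligands were not, for low counts. A gene listed as a negative regulator had 0 counts in every library and was not fitted either. Ifnb1, which encodes interferon-β, had 5 to 7 counts in naive libraries, 1 or 2 after IL-4/IL-13, 1 or 2 with tunicamycin, 1 to 3 with Sal003, 3 to 12 in set A and 2 to 17 in set B. The other ligands had at most 1 count in any library. Ifnb1 was thus scarce everywhere. Its naive libraries lay above the IL-4/IL-13 ones, as did those of set A (0.157 to 0.600 CPM, against 0.0504 to 0.121 CPM after IL-4/IL-13). Those with Sal003 overlapped the IL-4/IL-13 ones at this depth. Those of set B overlapped them too but reached 0.658 CPM.

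After IL-4/IL-13, 33 of the 59 genes fell and 1 rose, with a median log2 fold change of -1.36 against -0.02 over all genes. Of all genes fitted, 6.08% were called lower and 5.39% higher. None of the 4 receptor genes was called, with Ifnar1 at -0.30 (SE 0.06) and Ifnar2 at -1.31 (SE 0.05), just short of 2.5-fold. Stat2 fell by 1.36 (SE 0.17, adjusted p = 1.8e-07 in edgeR) on the log2 scale, and Irf9 stood at -0.99 (SE 0.06). Irf7, the factor that amplifies interferon production, fell by 4.04 (SE 0.30, adjusted p = 1.2e-11 in edgeR). Of the 24 effectors 22 fell, led by the chemokine gene Cxcl10 (-5.71, SE 0.36), Ifi44 (-4.40, SE 0.38) and the antiviral enzyme gene Rsad2 (-4.20, SE 0.35), and Isg15, a ubiquitin-like modifier, stood at -3.49 (SE 0.37). Socs1, an inhibitor of cytokine receptors, was the only gene of the list called higher (4.13, SE 0.13, adjusted p = 8.4e-19 in edgeR), and Usp18, which restrains the interferon receptor, stood at -0.12 (SE 0.13, adjusted p = 0.44 in edgeR).

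With Sal003, 30 of the 59 genes rose and 0 fell (median 1.51 against 0.00 over all genes), beside 2.68% and 5.04% of all genes fitted, and 21 of the 24 effectors were among them. The largest rises were Ifi44 (5.11, SE 0.37, adjusted p = 2.4e-11 in edgeR), Irf7 (4.65, SE 0.30, adjusted p = 3.2e-12 in edgeR) and Oasl1 (4.57, SE 0.40, adjusted p = 6.2e-10 in edgeR), and Isg15 and Rsad2 both rose by 4.23 (SE 0.37 and 0.35). Stat2 rose by 1.86 (SE 0.17), and Irf9 was at 0.92 (SE 0.06), Ifnar1 at 0.06 (SE 0.06) and Ifnar2 at 0.50 (SE 0.05), without a call. Set B was close in these counts, with 30 genes higher and 0 lower (median 1.37), beside 2.94% and 5.02% of all genes, led by Ifi44 (5.06, SE 0.37), Rsad2 (4.57, SE 0.35) and Oasl1 (4.46, SE 0.40). In set A 27 were higher and 1 lower (median 1.14), beside 4.79% and 7.96% of all genes, led by Ifi44 (4.68, SE 0.37), Rsad2 (4.35, SE 0.35) and Oasl1 (3.98, SE 0.41), and the sensor gene Tlr9 fell by 1.52 (SE 0.16). These comparisons share their IL-4/IL-13 controls. The members, at 1.57 to 5.53, lay among or above the largest of these changes, apart from Ifit1bl1 in set A.

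With tunicamycin 7 genes of the list were higher and 4 lower (median 0.00 against 0.01 over all genes), where 8.56% and 14% of all genes were. Cxcl10 rose by 4.51 (SE 0.38, adjusted p = 5.6e-11 in edgeR), Isg20 by 4.29 (SE 0.32) and Socs3 by 3.47 (SE 0.13), Isg15 by 2.25 (SE 0.39) and Rsad2 by 1.97 (SE 0.36). Socs1 fell by 3.93 (SE 0.13), Oas3 by 2.23 (SE 0.21) and Irf5 by 1.61 (SE 0.04), while Stat2 was at -0.45 (SE 0.17), Irf9 at -0.34 (SE 0.06) and Irf7 at -0.27 (SE 0.29), without a call. With Sal003 and both oligomycin sets Cxcl10 stayed between 0.793 and 4.55 CPM, against 38.4 to 47.4 CPM in naive cells, so it was not regained as Ifit1, Ifit2 and Ifit3 were. Between the oligomycin sets, Socs3 was higher in set A by 1.54 (SE 0.14) and Tlr9 lower by 1.53 (SE 0.16), and no effector was called, beside 1.14% of all genes called higher and 1.48% lower.

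**Figure D5:**
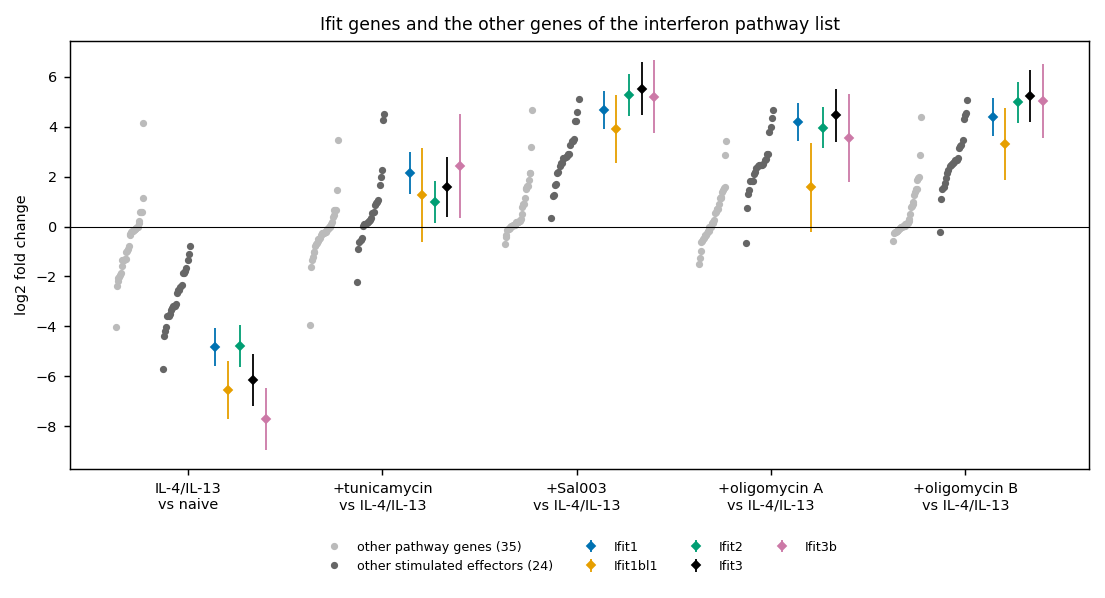
Log2 fold change of each Ifit gene (coloured diamonds, bars are 95% intervals) beside the 24 other interferon-stimulated effectors (dark dots) and the remaining 35 fitted genes of the pathway list (light dots) in 5 comparisons, dots ordered by value. The Ifit genes lie at the low end after IL-4/IL-13 and at the high end with Sal003 and oligomycin set B.

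Of the protein-coding neighbours of the cluster, Lipa was not called in any comparison, and Slc16a12 had too few counts to be tested. Lipa, the lysosomal lipase gene next to Ifit2, was at 2029 ± 247 CPM in naive cells and 2205 ± 185 CPM after IL-4/IL-13 (log2 fold change 0.12, SE 0.07, adjusted p = 0.15 in edgeR), and at 2446 ± 128 CPM with Sal003 (0.15, SE 0.07, adjusted p = 0.09 in edgeR). It was lower with tunicamycin by 0.60 (SE 0.07) and in set A by 0.47 (SE 0.07), under the 2.5-fold limit. Slc16a12, on the other side, had 6 to 11 counts in naive libraries and at most 4 in any other, and was not fitted. Ifit1bl2, which has the ISRE pair of Ifit1 in front of its main start, was scarce. It had 14 to 25 counts in naive libraries, 3 to 9 after IL-4/IL-13, 14 to 38 with Sal003 and 1 to 6 with tunicamycin. Its log2 fold changes were -1.38 (SE 0.40) with IL-4/IL-13 and 1.72 (SE 0.38) with Sal003, so its range was far smaller than that of Ifit1. Whether counting used strand is not given in the sources used here. Reads from Ifit1bl2 introns and from Ifit1 may therefore not have been separated.

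The genes most like each member over the 24 libraries were partly shared between members. They were found among 11848 genes of at least 1 CPM by Pearson's r of log2 CPM. For Ifit2 they were Trim30a (r = 1.00), Cmpk2 (0.99), Oas1g (0.99), Lgals9 (0.99) and Oasl1 (0.99), and for Ifit1 they were Slfn8, Ddx60, Rsad2, Ifi208 and Igtp (0.99 to 0.98). For Ifit3 they were Ifi208, Trim30c, Igtp, Trim30a and Oas2 (0.99 to 0.98). For Ifit3b the nearest were Iigp1 (0.98), Enpp4, Sirpb1c, Acp2 and Ms4a6b, and for Ifit1bl1 they were Tasl (0.95), Iigp1, 2310001H17Rik, Srgap2 and Sorl1. Among the members, Ifit1, Ifit2 and Ifit3 had r of 0.97 to 0.98 with each other, Ifit3b and Ifit1bl1 had 0.96, and Ifit2 and Ifit1bl1 had 0.75. With group means subtracted, so that only differences between mice remained, Ifit1bl1 was nearest to Tgtp2 (0.94) and Ifit3b to Ifi211 (0.97), and Cmpk2 was among the 5 nearest genes of Ifit1, Ifit1bl1, Ifit2 and Ifit3. These values describe 24 libraries that share 4 mice and 6 groups and carry no test.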

How the data were processed

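RNA-seq counts of 24 libraries (6 groups, 4 mice) were used. Per the labels and the methods of the study, the authors trimmed single 150-base reads (cutadapt 1.8), filtered out those of ribosomal RNA or low complexity, aligned what remained with STAR 2.7 to GRCm39 (Ensembl release 110) and counted them per gene with HTSeq 0.9.1, and these deposited raw counts were the starting values. Their RSEM TPM table was not used, since its header does not match its columns. The 5 totals rows (12.7% to 15.2% of reads) were left out.

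Counts were fitted with edgeR 4.0.16 in R 4.3.3 (TMM, filterByExpr by group, quasi-likelihood test, 1 coefficient per group over all libraries). CPM used TMM-scaled library sizes, log2 CPM a prior count of 2, and TPM the union exon length in GENCODE vM39, where 56323 identifiers were found. Promoters were read from GRCm39, and coding sequences were aligned with Biopython 1.88. The fit recovered known changes in simulated counts, planted in genes with ample counts and the same small spread for every gene. That setting does not cover the low counts or the wide spread of the members, so it says nothing about their fit. Members and gene lists were chosen with earlier results of these data known. Genes named from the pathway list were 10 fixed genes, 1 of which is not reported here, and, in each comparison, the 3 called genes with the largest rise and the 3 with the largest fall. Cxcl10 levels were added after its values were seen.

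Equal numbers mark cells of the same mouse: deviations from group means correlated with a median r of 0.24 in 60 pairs of the same mouse and -0.05 in 180 pairs of different mice. Replicates differed by more than sampling noise. Alternatives were DESeq2 1.42.0, upper-quartile factors, other count filters, only the 2 groups compared, a replicate block, a 2-fold threshold, Ifit3 and Ifit3b summed, a prior count of 0.5 and leaving out each mouse.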

Additional observations from a re-analysis of the deposited data

Results flagged for a closer look

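In 30 groups of 4 libraries (5 genes in 6 conditions), 2 held a library whose gap to the nearest other library exceeded Dixon's 95% limit, where chance flags about 1 in 20. Ifit1bl1 stood at 47.8 CPM in the naive library of mouse 1, above the other 3, with a gap of 0.843 of the range. Ifit2 stood at 15.5 CPM in the IL-4/IL-13 library of mouse 5, with a gap of 0.838. Both gaps are small beside the differences between these groups. The wide spread with Sal003 and in oligomycin set B set off no such flag, since its mice were spread over the range.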

How the results depend on the processing

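Of 342 fold changes of the members under alternative settings, 331 kept their direction and their side of the threshold and 0 changed direction. The calls gained were Ifit1bl1 in oligomycin set A against IL-4/IL-13 with DESeq2, without a filter and with these 2 groups alone, and Ifit2 between the oligomycin sets at a 2-fold threshold. The replicate block for the mouse changed no call of a member, with 5, 3, 5, 4, 5 and 2 members called and 1573, 3103, 1063, 1757, 1092 and 360 genes called over IL-4/IL-13 against naive, then tunicamycin, Sal003, set A and set B against IL-4/IL-13, then set A against set B.

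Leaving out each mouse in turn gave 1 to 3 members called with tunicamycin and 0 to 2 between the oligomycin sets, and the remaining comparisons kept 5, 5, 4 and 5. Summing Ifit3 and Ifit3b left 1 member called between the oligomycin sets. With at least 10 counts in every library 11017 genes were fitted, Ifit1bl1 and Ifit3b dropped out, so no count of members was given, and 812, 1738, 473, 911, 489 and 115 genes were called in the order above. The 2-fold threshold called 680 genes between the oligomycin sets. With a prior count of 0.5 the mean log2 CPM of Ifit3b after IL-4/IL-13 was -1.91. Depth limits Ifit3b and Ifit1bl1 after IL-4/IL-13, at 3 to 13 counts a library.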
